A study of Mus musculus with 2 samples.

Results

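The genes described here make, load, take up and break down the inhibitory transmitters GABA and glycine. They were chosen by name as 8 genes, Gad1, Gad2, Slc32a1, Slc6a11, Slc6a13, Abat, Slc6a9 and Slc6a5, out of 21474 protein-coding genes in each deposited gene table, and all 8 were found. Total RNA was sequenced from 1 group of 2 newborn mice of strain B6NCrl at age 0 days, pup 1 and pup 3, with a single whole midbrain and 1 library from each. No treatment or genetic change is named in the labels, sex was not collected, and both animals carry the same donor identifier. The comparisons are therefore between genes and transcripts within each library and between the pups.

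GABA is made from glutamate by glutamate decarboxylase, which uses pyridoxal phosphate as its cofactor, and is pumped into synaptic vesicles by a transporter that also carries glycine. After release, GABA is cleared by sodium-dependent plasma membrane transporters of neurons, glia and meninges, and is broken down by GABA transaminase. Glycine is cleared by a glial transporter and a neuronal transporter, of which the neuronal one marks glycinergic neurons, a class found mainly in hindbrain and spinal cord. GABAergic neurons of the midbrain populate the superior and inferior colliculi, the substantia nigra pars reticulata and the tegmentum.

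The libraries held 36934868 (pup 1) and 40769103 (pup 3) summed expected counts, the estimated number of reads per gene. Levels are given in TPM, the share of transcripts scaled to a fixed total, which divides reads by length and can therefore be set between genes. Means are over the 2 pups with the SD (n = 2). The tissue label was set beside 10 factors of midbrain GABAergic fate. Of these, 7 reached 1 TPM in each pup, against 62.1% of all protein-coding genes. Highest were Gata3 (78.1 ± 3.54 TPM) and Sox14 (39.4 ± 0.693 TPM). Below 1 TPM were Tal2 (0.31 ± 0.0283 TPM), Pax2 (0.17 ± 0.0141 TPM) and Helt, a factor of dividing GABAergic progenitors (0.13 ± 0.0283 TPM). Of 10 Hox genes, which are active in the hindbrain and spinal cord, no read was assigned to 8 in either library, and Hoxb2 and Hoxb5 had 1 count each in pup 3. All 13 forebrain and hypothalamic markers were higher in pup 3, and their TPM summed to 203.5 in pup 1 and 436 in pup 3. The largest part of each sum was Avp alone, at 124 TPM in pup 1 and 270 TPM in pup 3.

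Of the 8 genes, 7 reached 1 TPM in each pup, against 62.1% of all protein-coding genes. The exception was Slc6a5. The median of the 8 genes was 54.5 ± 4.73 TPM, and the median of all protein-coding genes was 4.61 ± 0.127 TPM. Together the 8 genes held 0.0473% ± 0.00174 of all TPM. In whole tissue, fewer cells of a type and less RNA per cell cannot be told apart.

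**Figure D1:**
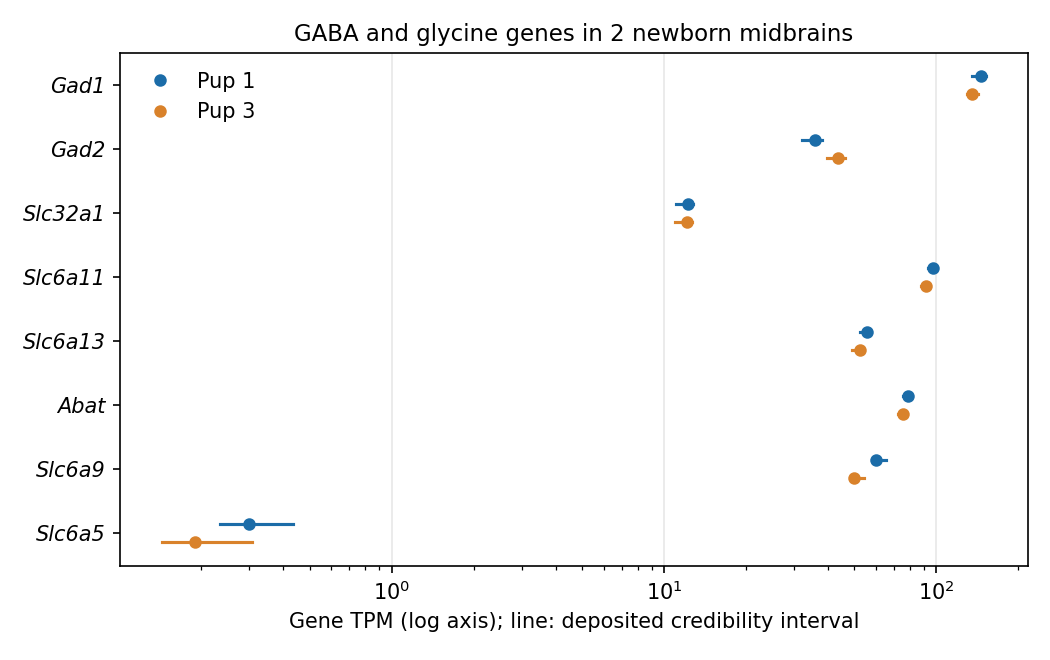
Gene level in TPM on a log axis for each of the 8 genes, ordered by role, with 1 point per pup and the deposited credibility interval as a line. Gad1 sits highest at 145 TPM in pup 1 and 135 TPM in pup 3, Slc32a1 lies near 12 TPM in both, and Slc6a5 stands apart below 1 TPM.

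Gad1 encodes GAD67, the decarboxylase that makes most of the GABA of the brain and is spread through the whole neuron (ENSMUSG00000070880.6, chromosome 2, 70553072 to 70602014, plus strand, mm10). Its level was 145 TPM in pup 1 and 135 TPM in pup 3, on 9543 and 10034 expected counts. This was the highest of the 8 genes, at rank 1190 of 21474 protein-coding genes. Gad2 encodes GAD65, the form held at nerve endings near vesicles (ENSMUSG00000026787.3, chromosome 2, 22622205 to 22693874, plus strand). Its level was 35.9 TPM in pup 1 and 43.6 TPM in pup 3, on 3446 and 3942 counts, so the pups were in the opposite order to that of Gad1.

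Gad1 was read mainly from a transcript that is not annotated to make protein. Of the 8 Gad1 transcripts in the tables, 6 had counts in both pups, and the leading one was Gad1-206 (ENSMUST00000140478.1), annotated as a processed transcript with no coding sequence. It was at 77.5 TPM in pup 1 and 70.9 TPM in pup 3. The full coding transcript Gad1-201 (ENSMUST00000094934.6, 593 codons) was at 54.5 TPM in pup 1 and 56.1 TPM in pup 3. The deposited credibility intervals of these transcripts did not overlap within either pup, at 69.0 to 84.6 TPM for Gad1-206 and 44.6 to 59.5 TPM for Gad1-201 in pup 1, and at 65.1 to 78.5 TPM and 45.9 to 58.6 TPM in pup 3. Gad1 was the only one of the 8 genes led by a transcript not annotated as coding. Among protein-coding genes that averaged at least 10 TPM and had more than 1 transcript in the tables, 8.03% were led by such a transcript in both pups, 522 of 6499 genes. Slc32a1 and Slc6a11 had 1 transcript each and Slc6a5 averaged 0.245 TPM, so these members lie outside that background.

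Gad1-206 and Gad1-201 differ over a short stretch. Gad1-206 has 2996 bases in 16 exons, of which 2919 bases (97.4%) are also exons of Gad1-201. Its own part is a first exon of 77 bases, from 70566377 to 70566453, inside an intron of Gad1-201. In its place Gad1-201 has 436 bases that Gad1-206 lacks, nearly all in its first exons, where its start codon lies. Set against all other Gad1 transcripts, Gad1-201 has 2 bases of its own and Gad1-206 has 77. The estimate for Gad1-201 thus also depends on the split with those other transcripts. The longest open reading frame of Gad1-206 has 444 codons, begins at base 446 and is identical to the end of the Gad1-201 reading frame, without its first 149 codons. The sequences below run into the first exon that both transcripts share. Capitals mark bases that the other transcript of the pair lacks, which for Gad1-201 are the coding bases 70563832 to 70563910, and the lower-case bases are the first 30 of the shared exon, from 70567186 to 70567215 (GENCODE M21 transcripts, mm10, chromosome 2, plus strand).
Gad1-206: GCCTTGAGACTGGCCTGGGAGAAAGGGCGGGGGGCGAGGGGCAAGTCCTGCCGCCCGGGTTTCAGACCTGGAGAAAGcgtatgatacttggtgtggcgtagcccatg
Gad1-201: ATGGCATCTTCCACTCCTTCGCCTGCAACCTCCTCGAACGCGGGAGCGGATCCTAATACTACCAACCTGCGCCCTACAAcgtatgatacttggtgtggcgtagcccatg
Reads that fall in the shared bases can come from either transcript, so the split between them is an estimate, and the coverage of the first exons was not analysed here.

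Of the remaining Gad1 transcripts, Gad1-204 of 398 bases was at 6.90 TPM in pup 1 and 1.75 TPM in pup 3, with an interval from 0.0168 to 16.0 TPM in pup 1. Gad1-202, which ends early and has 249 codons, was at 3.89 TPM in pup 1 and 4.26 TPM in pup 3. Gad1-205, with 223 codons, was at 2.48 TPM in pup 1 and 2.21 TPM in pup 3. Transcripts annotated as coding summed to 66.0 ± 2.50 TPM, and those not so annotated held 53.0% ± 0.587 of the gene's TPM. Gad1os, an antisense gene over the start of Gad1, had 14 counts in pup 1 and 10 in pup 3.

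**Figure D2:**
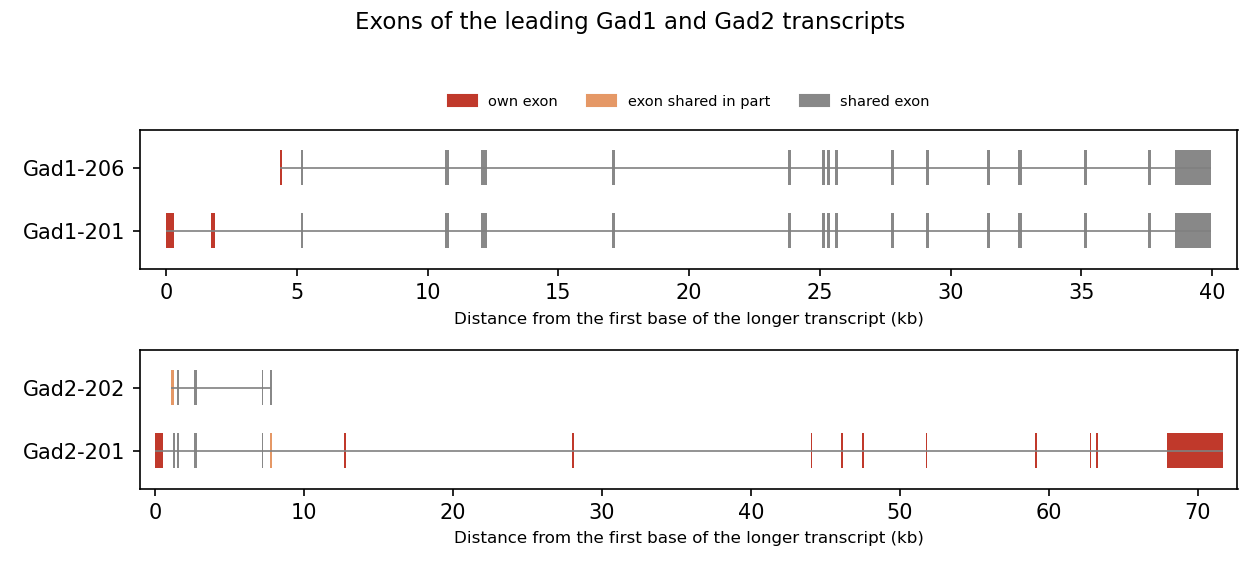
Exons of the leading transcripts of Gad1 and Gad2 by distance in kb from the first base of the longer transcript, with exons narrower than 0.1 kb drawn at 0.1 kb. Gad1-206 differs from Gad1-201 in its first exon alone apart from the last bases, while Gad2-202 starts inside the first intron of Gad2-201 and ends well before it.

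The Gad2 gene value also held a noncoding part. The coding transcript Gad2-201 (5744 bases, 585 codons) was at 25.2 TPM in pup 1 and 25.7 TPM in pup 3, with overlapping intervals. Gad2-202, a processed transcript of 721 bases, was at 10.7 TPM in pup 1 and 17.95 TPM in pup 3, with intervals of 7.23 to 13.6 TPM and 14.2 to 20.9 TPM that did not overlap. It thus took 29.7% of the gene's TPM in pup 1 and 41.15% in pup 3, on 154 and 282 counts, which were 4.46% and 7.15% of the gene's counts. Because this transcript is short, each of its reads weighs more in TPM than a read of Gad2-201.

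Gad2-202 shares 589 of its bases with Gad2-201, and its own 132 bases, from 22623304 to 22623435, lie in the first intron of Gad2-201 and run directly into the next exon. Its longest open reading frame that closes with a stop has 29 codons. Frames still open at its last base, which lies inside an exon of Gad2-201, were not counted. Below, capitals mark the bases outside the other transcript, which for Gad2-201 are the coding bases of exon 1, from 22622663 to 22622738, and the lower-case bases from 22623436 to 22623465 are shared (mm10, chromosome 2, plus strand).
Gad2-202: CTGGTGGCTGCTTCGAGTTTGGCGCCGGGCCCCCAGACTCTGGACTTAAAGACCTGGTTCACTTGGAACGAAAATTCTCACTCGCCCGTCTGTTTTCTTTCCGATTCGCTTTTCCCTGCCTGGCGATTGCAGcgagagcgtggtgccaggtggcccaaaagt
Gad2-201: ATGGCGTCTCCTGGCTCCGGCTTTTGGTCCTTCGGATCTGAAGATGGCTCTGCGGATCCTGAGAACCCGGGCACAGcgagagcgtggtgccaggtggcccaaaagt
Whether reads of unspliced Gad2 RNA entered the count of Gad2-202 was not tested.

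**Figure D3:**
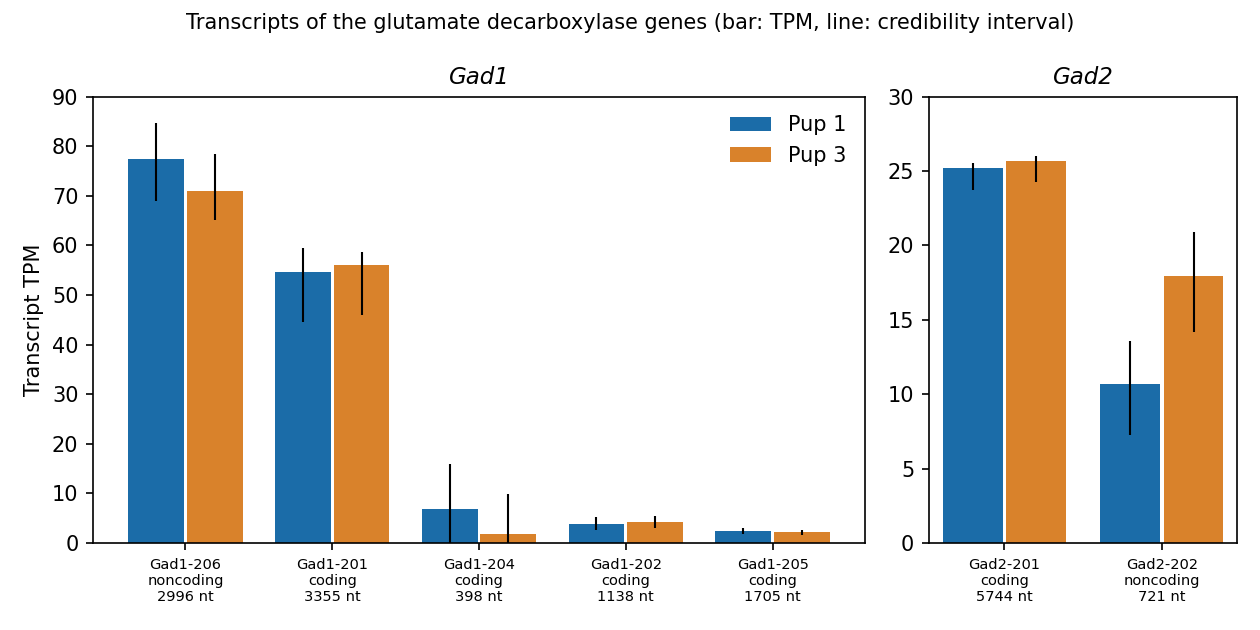
TPM of the Gad1 and Gad2 transcripts at 1 TPM or more in either pup, as bars per pup with the deposited credibility interval as a line. Gad1-206 exceeded Gad1-201 in both pups, and the pups differed in Gad2-202 (10.7 TPM in pup 1 and 17.95 TPM in pup 3) and not in Gad2-201 (25.2 and 25.7 TPM).

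Gad1 exceeded Gad2 in both libraries, and the size of the gap depended on which transcripts were counted. On gene TPM, the log2 ratio of Gad1 to Gad2, with 0.1 TPM added to each value, was 2.02 in pup 1 and 1.63 in pup 3. On transcripts annotated as coding it was 1.42 in pup 1 and 1.32 in pup 3. On the leading coding transcript of each gene it was 1.11 in pup 1 and 1.12 in pup 3, so the pups were level there. On transcripts of 2000 bases or more, which leave out Gad2-202 and keep Gad1-206, it was wider, at 2.34 ± 0.057. Counting coding transcripts alone also turned the order of Gad1 and other genes. On gene TPM Gad1 exceeded Slc6a11 by 0.57 ± 0.014 and Abat by 0.86 ± 0.031 on the log2 scale, whereas on coding transcripts the ratio of Gad1 was -0.52 ± 0.0042 to Slc6a11 and -0.22 ± 0.010 to Abat. On transcripts of 2000 bases or more these ratios stayed above 0, at 0.45 ± 0.020 to Slc6a11 and 0.76 ± 0.012 to Abat.

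**Figure D4:**
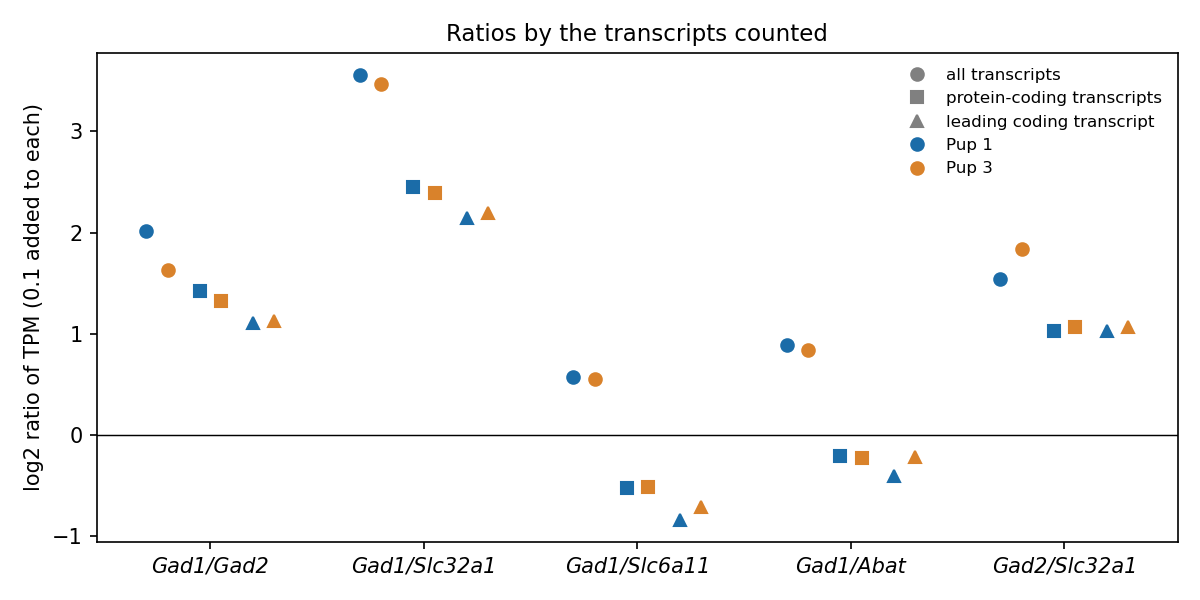
Log2 ratio of TPM for 5 gene pairs in each pup, from all transcripts, from transcripts annotated as coding, and from the leading coding transcript. The ratio of Gad1 to Slc6a11 and to Abat lies above 0 on all transcripts and below 0 on coding transcripts in both pups.

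Slc32a1 encodes the vesicular transporter that loads both GABA and glycine (ENSMUSG00000037771.11, chromosome 2, 158610767 to 158615748, plus strand). It was at 12.3 TPM in pup 1 and 12.2 TPM in pup 3, on 767 and 829 counts, all from 1 transcript, and the pups were level. Gad1 exceeded it by 3.51 ± 0.062 on the log2 scale, or 11.4-fold, and Gad2 by 1.69 ± 0.21. The excess of Gad1 over Slc32a1 was smaller on coding transcripts (2.42 ± 0.044) and on the leading coding transcript (2.17 ± 0.039). On the leading coding transcripts the ratio of Gad2 to Slc32a1 was 1.03 in pup 1 and 1.07 in pup 3. Among the other vesicular transmitter transporters read, the glutamate transporter gene Slc17a6 was at 124 ± 1.85 TPM, the monoamine transporter gene Slc18a2 at 16.4 ± 0.0919 TPM and the acetylcholine transporter gene Slc18a3 at 4.01 ± 0.933 TPM. The lowest was Slc17a9, a vesicular nucleotide transporter gene, at 0.11 ± 0.0707 TPM.

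Slc6a11 encodes the GABA transporter typical of astrocytes (ENSMUSG00000030307.7, chromosome 6, 114131241 to 114249952, plus strand). It was at 97.4 TPM in pup 1 and 91.9 TPM in pup 3, on 8932 and 9210 counts. This was second among the 8 genes and came from 1 transcript. Beside it, 7 of 9 astrocyte and radial glia markers were higher in pup 1, their TPM summed to 3407 in pup 1 and 3168 in pup 3, and none was at 0. Their part in the differences of Slc6a11 and Slc6a9 between the pups was not tested.

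Slc6a13 encodes a GABA and taurine transporter found in meninges and at blood vessels as well as in liver and kidney (ENSMUSG00000030108.10, chromosome 6, 121300227 to 121337733, plus strand). It was at 55.6 TPM in pup 1 and 52.3 TPM in pup 3, and Slc6a11 exceeded it by 0.81 ± 0.0026 on the log2 scale. Its coding transcript Slc6a13-201 held 85.5% ± 4.05 of the gene's TPM. The retained-intron transcript Slc6a13-202 held 9.32% in pup 1 and 12.6% in pup 3. All 9 meningeal and fibroblast markers reached 1 TPM in each pup, against 62.1% of protein-coding genes, and summed to 459 TPM in each. The highest values were those of Igf2 (172 ± 10.1 TPM) and Col3a1 (85.4 ± 2.14 TPM). Of the 9 markers, 7 were higher in pup 1 and 2 in pup 3, with Igf2 at 165 TPM in pup 1 and 179 TPM in pup 3. Their part in the difference of Slc6a13 between the pups was not tested.

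Abat encodes GABA transaminase, the mitochondrial enzyme that starts the breakdown of GABA (ENSMUSG00000057880.8, chromosome 16, 8513429 to 8621568, plus strand). It was at 78.6 TPM in pup 1 and 75.4 TPM in pup 3, on 7899 and 8040 counts, with overlapping intervals. Its leading transcript Abat-201 codes for 500 amino acids and held 89.0% ± 3.51 of the gene's TPM. Abat-203, of 444 codons, held 7.97% in pup 1 and 11.9% in pup 3. All bases of Abat-203 also lie in exons of other Abat transcripts in the tables.

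Slc6a9 encodes the glycine transporter of glia, which also serves some glutamatergic neurons (ENSMUSG00000028542.13, chromosome 4, 117834506 to 117875198, plus strand). It was at 60.1 TPM in pup 1 and 49.95 TPM in pup 3, with intervals of 58.1 to 65.0 TPM and 48.4 to 54.2 TPM that did not overlap. Its 12 transcripts in the tables differ at the start, in length and at the end. Transcripts with the upstream first coding exon up to its end held 91.7% ± 0.267 of the gene's TPM, and those with the downstream one held 4.24% ± 0.450. Slc6a9-208, which stops inside the upstream exon, was counted in neither group and held 2.48% in pup 1 and 2.19% in pup 3. The upstream group was led by Slc6a9-202 (60.8% ± 2.20) and Slc6a9-201 (27.4% ± 1.20), whose reading frames of 633 codons are identical. Slc6a9-209, the full transcript with the downstream start and 637 codons, was at 0.41 TPM in pup 1 and 0.00 TPM in pup 3. Its credibility intervals reached up to 2.60 TPM in pup 1 and 1.66 TPM in pup 3. All its bases also lie in exons of other Slc6a9 transcripts, so its level is an estimate of the split between them. The sequences show the choice between these starts. Capitals are the first coding bases, at 117843106 to 117843135 for Slc6a9-202 and at 117849380 to 117849466 for Slc6a9-209, and the lower-case bases from 117855875 to 117855904 are shared (mm10, chromosome 4, plus strand).
Slc6a9-202: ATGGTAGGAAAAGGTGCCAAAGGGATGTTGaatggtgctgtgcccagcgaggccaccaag
Slc6a9-209: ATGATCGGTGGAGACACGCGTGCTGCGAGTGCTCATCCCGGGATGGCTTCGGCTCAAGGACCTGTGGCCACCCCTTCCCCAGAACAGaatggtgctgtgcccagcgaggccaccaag
B4galt2, which lies on the other strand and overlaps the 3′ end of Slc6a9, took 3809 counts in pup 1 and 4332 in pup 3. The sources used here do not give the strand setting of the counting, so reads in the overlap cannot be told apart.

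Slc6a5 encodes the glycine transporter of glycinergic neurons (ENSMUSG00000039728.10, chromosome 7, 49910146 to 49963856, plus strand). It was at 0.30 TPM in pup 1 and 0.19 TPM in pup 3, on 49 and 33 counts, at rank 15205 of 21474 protein-coding genes. Slc6a9 exceeded it by 7.33 ± 0.14 on the log2 scale and Slc32a1 by 5.18 ± 0.32. Of the 2 transcripts in the tables, both of 791 codons, Slc6a5-201 took all the counts.

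In order of gene TPM the 8 genes ran Gad1, Slc6a11, Abat, Slc6a9, Slc6a13, Gad2, Slc32a1 and Slc6a5. A pair was called apart where both pups gave the same sign, the mean log2 ratio was over 3 times its SD, and neither pup had overlapping credibility intervals. No p is printed, because flipping signs exactly over 2 animals allows none smaller than 0.5 (two-sided). By this rule 12 of 14 pairs read were apart, among them 5 of the 7 neighbours in the order. The neighbours that were not apart were Slc6a9 and Slc6a13 (log2 ratio 0.02 ± 0.13, with opposite signs in the pups) and Slc6a13 and Gad2 (0.45 ± 0.26).

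The log2 difference of pup 1 minus pup 3 was past 1 in size for none of the 8 genes, and for 42 of the 13318 genes with mean counts of at least 100 (0.315%). Of the 8 genes, 7 passed that filter on counts, all but Slc6a5. The median absolute difference over the 13318 genes was 0.11. Slc6a9 was higher in pup 1 by 0.27 and Slc6a11 by 0.08. Gad2 had a difference of -0.28 on gene TPM and of -0.03 on its coding transcript. These were the 3 genes whose intervals did not overlap between the pups, against 20.3% of the 13318 genes. On counts scaled to total depth, the difference was 0.29 for Slc6a9 (exact 95% interval 0.23 to 0.36), -0.05 for Gad2 (-0.12 to 0.01) and 0.71 for Slc6a5 (0.05 to 1.40). It was 0.07 for Gad1 (0.03 to 0.11), 0.10 for Slc6a11 (0.06 to 0.14), 0.15 for Slc6a13 (0.07 to 0.23) and 0.12 for Abat (0.07 to 0.16). For Slc32a1 it was 0.03 (-0.11 to 0.17). The intervals of Gad2 and Slc32a1 held 0, and the share of all genes whose interval leaves out 0 is not given here. Such intervals cover counting error only, and with 1 library per animal the differences have no replicate check.

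The forebrain and hypothalamic markers, among them the Dlx genes of forebrain GABAergic neurons, were the list in which the pups stood farthest apart. Of 11 such markers that passed the filter on counts, 7 were past 1 in size, all higher in pup 3, with Dlx1 at 8.97 TPM in pup 1 and 21.8 TPM in pup 3 and Dlx2 at 2.64 TPM in pup 1 and 7.18 TPM in pup 3. The others were Oxt, Hcrt, Pmch, Avp and Six6. The Dlx values are gene TPM. On transcripts annotated as coding, Dlx1 was at 3.57 TPM in pup 1 and 8.01 TPM in pup 3. Dlx2 was at 2.52 TPM in pup 1 and 6.7 TPM in pup 3 on such transcripts. Beside these values the coding transcript of Gad2 was at 25.2 TPM in pup 1 and 25.7 TPM in pup 3, and Slc32a1 at 12.3 and 12.2 TPM. The part of these markers in the value of Gad2-202 was not tested.

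The plasma membrane transporters belong to the Slc6 family, of which 20 protein-coding genes are reported here. Slc6a11 averaged 94.6 ± 3.86 TPM, Slc6a9 55.0 ± 7.16 TPM and Slc6a13 53.9 ± 2.30 TPM, while Slc6a5 averaged 0.245 ± 0.0778 TPM. Of the 16 reported family genes outside the 8 described here, 9 reached 1 TPM in each pup, against 62.1% of protein-coding genes. The highest of these 16 were the taurine transporter gene Slc6a6 (53.6 ± 2.16 TPM), the proline transporter gene Slc6a20a (40.1 ± 6.41 TPM) and Slc6a15, a transporter gene for neutral amino acids (37.0 ± 0.714 TPM). Slc6a12, which encodes a betaine and GABA transporter, was at 6.97 ± 0.120 TPM, and Slc6a18 and Slc6a21 had no counts in either pup.

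**Figure D5:**
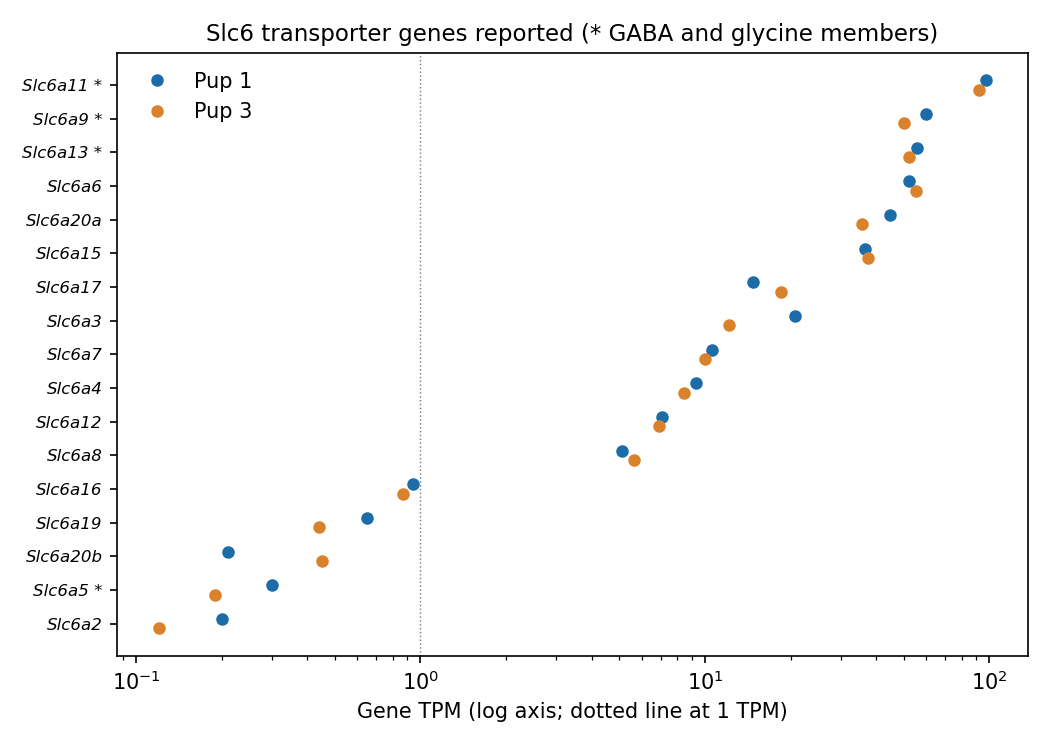
Level in TPM on a log axis of the reported Slc6 transporter genes averaging at least 0.1 TPM, 1 point per pup, with the genes described here marked by an asterisk. Slc6a11 lies at 97.4 TPM in pup 1 and 91.9 TPM in pup 3, Slc6a9, Slc6a13 and Slc6a6 lie close together, and Slc6a5 lies below 1 TPM.

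No other pathway gene reported here with mean counts of at least 100 was past 1 in size between the pups. Of the 7 genes that supply the precursors glutamate and glutamine, all reached 1 TPM in each pup on gene TPM. Of Gls2, transcripts annotated as coding held 0.23 TPM in pup 1 and 0 TPM in pup 3. Highest were Glul, glutamine synthetase of astrocytes (205 ± 7.22 TPM), and the glutamine carriers Slc38a2 (62.4 ± 4.43 TPM) and Slc38a1 (35.9 ± 2.39 TPM), with the glutaminase gene Gls2 lowest at 1.55 ± 0.757 TPM. For the cofactor, Pdxk, pyridoxal kinase, was at 57.5 ± 3.51 TPM. Among relatives of the decarboxylases, Csad, which acts in taurine synthesis, was at 12.3 ± 1.00 TPM and Gadl1 at 0.22 ± 0.0566 TPM.

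All 5 genes listed for later steps of GABA breakdown or other GABA routes reached 1 TPM in each pup, against 62.1% of protein-coding genes. Akr7a5, an aldehyde reductase that acts on succinic semialdehyde, was at 55.4 ± 0.771 TPM, Aldh9a1 at 34.6 ± 0.792 TPM and Adhfe1 at 20.6 ± 1.89 TPM. Of the Adhfe1 level, transcripts annotated as coding held 1.11 TPM in pup 1 and 0.97 TPM in pup 3. Aldh5a1, which oxidises the succinic semialdehyde made by GABA transaminase, was at 12.8 ± 0.488 TPM, below Abat (77.0 ± 2.26 TPM), and Maob was lowest on gene TPM at 6.18 ± 0.247 TPM.

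For glycine, the serine synthesis genes Phgdh (136 ± 13.7 TPM), Psat1 (61.5 ± 4.96 TPM) and Psph (34.7 ± 0.940 TPM) led their list, with the cytosolic serine hydroxymethyltransferase gene Shmt1 lowest at 2.89 ± 0.339 TPM. In the glycine cleavage system, Dld, whose product is shared with other mitochondrial complexes, was at 101 ± 1.97 TPM, Gcsh at 85.3 ± 7.47 TPM and Amt at 25.1 ± 1.63 TPM. Gldc, the glycine decarboxylase itself, was lowest at 4.49 ± 0.113 TPM. Among other carriers that accept glycine or related small amino acids, Slc36a4 was at 29.6 ± 1.24 TPM, Slc7a10, a transporter of astrocytes and neurons, at 26.0 ± 5.24 TPM and Slc36a1 at 2.26 ± 0.212 TPM.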

How the data were processed

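Total RNA of 2 midbrains was measured, 1 library each, from 10.0 ng of RNA above 200 nt per the labels. Per the deposited text records, the tables rest on transcriptome alignments (build mm10, annotation GENCODE M4); the program is not given in the sources used here. The authors deposited expected counts per gene and transcript, which are estimates and need not be whole. The authors scaled their deposited TPM over every feature of a file, spike-ins included, and effective length was 99 bases below length. The authors' transcript tables give each transcript's percent of its gene's TPM. Their deposited credibility bounds, of unstated level, were read as a signal on the TPM scale around the posterior mean, so they need not contain the TPM value.

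Symbols, transcript types, coordinates and sequences came from GENCODE M21, on the same build, by identifier without version; 42462 Ensembl genes (98.0%) had a symbol. All transcripts of the 8 genes had the same length in both annotations except that of Slc6a11. Pdxp was not matched. Open reading frames were the longest run of codons after ATG up to a stop. Ratios and differences are log2 of TPM after adding 0.1. No test was run, since the labels give 1 group. The 8 genes, the lists and the rule for named genes (the 3 highest and the lowest of each list) were chosen with earlier results of these data known. Some genes of these lists are not reported here, and list counts and orders are over the genes reported. Alternatives counted coding transcripts, the leading coding transcript or transcripts of 2000 bases or more, chosen for the ratios after seeing the data, and used edgeR 4.0.16 TMM factors and DESeq2 1.42.0 size factors on rounded counts, run in R 4.3.3. Other steps used pandas 2.3.3, SciPy 1.17.1 and numpy 2.4.6 under Python 3.11.15. Simulated counts served to check the step that gives differences between pups.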

Additional observations from a re-analysis of the deposited data

How the results depend on the processing

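No paired analysis was possible because the labels give 1 group. The median of the 8 genes was 65.3 TPM when TPM was rescaled over nuclear protein-coding genes, 49.2 TPM on coding transcripts and 39.8 TPM on the leading coding transcript, the last chosen after seeing the data, and 51.1 to 57.8 TPM with either pup left out. Of the 3 choices of transcripts added after seeing the data, coding transcripts and the leading coding transcript turned the sign of called ratios, and transcripts of 2000 bases or more did not. The log2 ratio of Gad1 to Slc6a11 was -0.52 on coding transcripts and -0.77 on the leading coding transcript, and that of Gad1 to Abat was -0.22 and -0.31, as these settings leave out Gad1-206. The last value (SD 0.13) is under 3 times its SD, so Gad1 and Abat were not apart there. The ratio of Gad1 to Gad2 kept its sign, from 1.12 on the leading coding transcript to 2.34 on transcripts of 2000 bases or more, and from 1.63 to 2.02 with either pup left out, and the share of Gad1-206 ran from 52.4% to 53.3%. Genes past 1 between the pups numbered 27 with 1 TPM added, 378 of 17831 where mean counts reached 10, and 2364 of 43346 with no filter. The median difference over all genes moved from -0.02 on TPM to 0.01 on counts with TMM scaling. Slc6a13 and Gad2, not apart on TPM, were apart on coding transcripts (0.86) and, in the opposite order, on counts not divided by length (-0.52). Slc6a9 and Slc6a13 were apart on such counts (0.60) and on the leading coding transcript (-0.47). The deposited intervals are on the TPM scale, and the gene intervals of Slc6a9 and Slc6a13 overlapped in pup 3. The call for this pair on counts therefore did not rest on them. No pair called apart was lost under another pseudocount, posterior mean TPM or counts not divided by length. At this depth 1 library per animal limits every comparison between the pups.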
